A study of Rattus norvegicus with 22 samples.

Results

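Sertoli cells, the somatic cells that hold and nourish the germ cells of the testis, are defined by genes such as Clu, Gja1, Fshr, Sox9, Wt1, Inha, Inhbb and Cldn11, and the levels of these 8 genes were measured here in RNA of germ cell fractions from male rats. The genes were taken by name, through the transcript accession of each non-control array probe, and 7 of the 8 were measured, by 10 of 30367 probes. No probe carried an accession that mapped to Sox9, a transcription factor that directs Sertoli cell fate, so Sox9 was not analysed here. Clu, Gja1, Fshr, Inha and Cldn11 had 1 probe each, Inhbb had 2 and Wt1 had 3, and all probes of Inhbb, like all those of Wt1, carried the same transcript accession.

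The study asked how chronic treatment with cyclophosphamide, an alkylating drug, changes transcripts of male germ cells. The 22 arrays, 1 sample each, fell into 4 groups: round spermatids, the haploid cells that follow meiosis, from cyclophosphamide rats (n = 6) and from saline rats (n = 6), and pachytene spermatocytes, the cells in meiotic prophase, from cyclophosphamide rats (n = 5) and from saline rats (n = 5). The drug was given by gavage at 6 mg/kg on 6 days per week over 4 weeks, and the other rats were gavaged with saline on that schedule. Cells were separated by sedimentation at unit gravity (STA-PUT), which sorts cells by size and removes no cell type by a marker. Strain, age and the purity of each fraction are not given in the sources used here, and the arrays were taken as separate rats. The labels number 2 cyclophosphamide pachytene arrays as rat 16 with different year suffixes and use some numbers in both cell types, and whether any of these are the same animal is not given.

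Sertoli cells form the wall of the seminiferous tubule's inner compartment. They respond to follicle-stimulating hormone through the receptor Fshr. They return a signal to the pituitary through inhibin, made of the Inha subunit and a beta subunit such as that of Inhbb. Junction proteins such as Cldn11 and Gja1 take part in their blood-testis barrier. Germ cells are embedded in the Sertoli cell cytoplasm and stay attached to it by junctions until the tissue is dissociated. In RNA from a cell fraction, fewer cells of a type and less RNA per cell cannot be told apart.

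Promoters are shown for the hormone receptor Fshr and the hormone subunit Inha, the ends of the pituitary loop, because the levels of these genes also varied together across arrays. Other pairs did so as closely, such as Gja1 with Wt1 probe A_44_P808666 (r = 0.90, beside 0.87 for Fshr with Inha, group means removed). The RefSeq table, of rat assembly GRCr8, held a promoter of 6 of the 8 genes and had no entry used here for Clu and Sox9. Each sequence is given 5′ to 3′ on the plus strand, with 250 bases before and 50 bases after the annotated start. Capitals mark matches to 4 of the 6 motifs searched.

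Fshr, GRCr8 chr6:10952079-10952378, plus strand: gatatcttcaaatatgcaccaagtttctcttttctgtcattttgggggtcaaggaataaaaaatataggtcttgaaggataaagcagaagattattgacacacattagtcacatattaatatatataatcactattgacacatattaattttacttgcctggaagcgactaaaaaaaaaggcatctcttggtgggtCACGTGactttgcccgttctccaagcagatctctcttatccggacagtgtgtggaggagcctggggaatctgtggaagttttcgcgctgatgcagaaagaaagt
Inha, GRCr8 chr9:84442859-84443158, plus strand: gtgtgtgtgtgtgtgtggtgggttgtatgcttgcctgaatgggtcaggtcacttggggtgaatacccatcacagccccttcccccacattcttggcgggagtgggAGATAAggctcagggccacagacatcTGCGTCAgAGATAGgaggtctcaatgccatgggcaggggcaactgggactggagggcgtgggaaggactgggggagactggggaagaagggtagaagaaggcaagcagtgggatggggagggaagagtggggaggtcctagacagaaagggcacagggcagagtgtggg

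The capitals in Fshr mark the E-box CACGTG at bases 197 to 202, an element read by basic helix-loop-helix factors, which 6.42% of 33469 promoters of the table held on either strand. The capitals in Inha mark the GATA motif AGATAA at bases 106 to 111 (11.6% of promoters), the variant cAMP response element TGCGTCA at bases 132 to 138 (1.90%) and the GATA motif AGATAG at bases 140 to 145 (9.15%). The marked stretches do not overlap. The E-box also occurred in the window of Wt1, and AGATAA in that of Gja1. The nuclear receptor motif AGGTCA (16.2% of promoters) also occurred in the Inha window, where it is left in lower case, and the SOX motif AACAAT (11.7%) occurred in none of the 6 windows. These motifs were chosen with the sequences in view, and a match describes the letters of a window and nothing more.

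Levels are log2 of the processed spot intensity minus that of the array's 75th percentile, so that 0 is the brightness of the 75th percentile probe and 1 unit is a doubling. The 75th percentile intensity lay between 1069 and 2423, the share of probes well above background lay between 65.3% and 76.4%, and arrays of 1 group correlated at 0.981 to 0.991. The number of arrays limits the precision. Of genes listed as fraction markers, 11 of 11 round spermatid genes were higher in round spermatids of saline rats than in pachytene spermatocytes of saline rats, and 8 of 12 pachytene genes were lower there and 1 higher (limma adjusted p under 0.05). Over all genes tested in that comparison 38.3% were higher and 37% lower. For a comparison of the cell types a gene was tested where its probe was well above background on all but at most 1 array of a group, and each gene was represented by its probe with the highest mean.

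Between the cell types most Sertoli genes were much lower in round spermatids. Among cyclophosphamide rats, 5 of the 7 measured genes (Clu, Gja1, Fshr, Inha and Cldn11) were lower in round spermatids than in pachytene spermatocytes, Wt1 was higher by its brightest probe and Inhbb did not pass. Over all genes 79.2% of 19352 tested passed in this comparison, 40.4% lower and 38.8% higher. The median difference of the 7 genes was -3.14 on the log2 scale, beside -0.02 over all genes tested. Among saline rats the count was again 5 lower, 1 higher and 1 that did not pass, where 75.3% of 19422 genes passed, 37% lower and 38.3% higher, and the median difference was -3.09, beside 0.01 over all genes tested. Fshr met the detection filter only through pachytene spermatocytes, where it was high, and over the other 6 genes 4 were lower and 1 higher in each comparison. The median difference of these 6 genes was -2.97 among cyclophosphamide rats and -2.98 among saline rats. Read by probe, 7 of the 10 probes were lower and 2 higher in each comparison, where over every probe 79.5% passed among cyclophosphamide rats (40.9% lower and 38.6% higher) and 75.6% among saline rats (37.6% lower and 38% higher). In each comparison 9 of the 10 probes did not overlap between the cell types, against 67.4% of all probes tested among cyclophosphamide rats and 57.6% among saline rats.

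**Figure D1:**
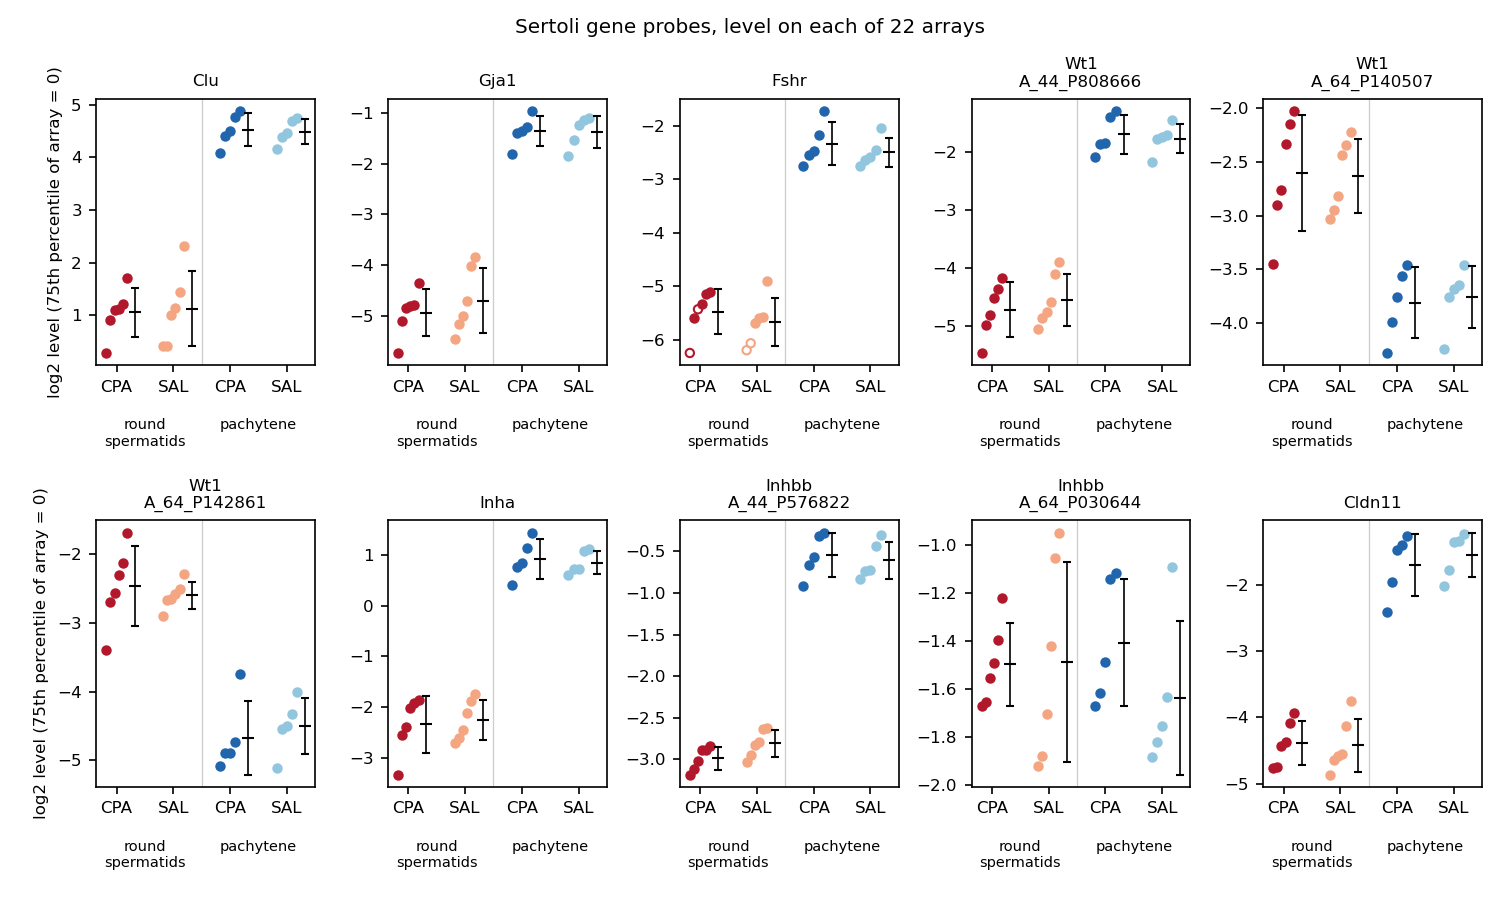
Log2 level (75th percentile of the array = 0) of each Sertoli gene probe on each of the 22 arrays, as points, with the mean and SD of each group beside them; open points are not well above background, and CPA and SAL stand for cyclophosphamide and saline rats. Clu, Gja1, Fshr, Inha, Cldn11, Wt1 probe A_44_P808666 and Inhbb probe A_44_P576822 sit lower in round spermatids without overlap, Wt1 probes A_64_P140507 and A_64_P142861 sit higher, and Inhbb probe A_64_P030644 overlaps in all groups.

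The receptor of the loop, Fshr, had levels of -6.25 to -5.10 (median -5.38) in round spermatids of cyclophosphamide rats and -6.19 to -4.90 (median -5.63) in round spermatids of saline rats. It had levels of -2.55, -2.18, -1.73, -2.76 and -2.48 in pachytene spermatocytes of cyclophosphamide rats and -2.46, -2.64, -2.05, -2.76 and -2.59 in pachytene spermatocytes of saline rats. The cell types did not overlap, the treatments did, and Fshr was well above background on 4 of 6 arrays in each round spermatid group and on 5 of 5 in each pachytene group. Fshr was tested only because the pachytene groups met the filter, so its test is no independent sign of the direction. The log2 difference was -3.14 ± 0.23 (SE) among cyclophosphamide rats (limma adjusted p = 2.19e-11), an 8.80-fold lower level (95% interval 6.33 to 12.2), and -3.17 ± 0.23 among saline rats (limma adjusted p = 3.50e-11). The background correction mattered here: normexp on the median signals gave -1.98 among cyclophosphamide rats and -1.86 among saline rats, which is 3.94-fold and 3.62-fold.

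Inha, the alpha subunit that all inhibins share, had levels of -3.32 to -1.85 (median -2.20) in round spermatids of cyclophosphamide rats and -2.69 to -1.74 (median -2.28) in round spermatids of saline rats. In pachytene spermatocytes it had levels of 0.76, 1.43, 1.12, 0.41 and 0.84 in cyclophosphamide rats and 1.06, 0.60, 1.11, 0.72 and 0.72 in saline rats. Every round spermatid array was lower than every pachytene array, by a gap of 2.26 among cyclophosphamide rats and 2.34 among saline rats. Inha was 9.52-fold lower in round spermatids of cyclophosphamide rats (log2 difference -3.25 ± 0.24, 95% interval -3.74 to -2.76; limma adjusted p = 2.29e-11) and 8.51-fold lower in those of saline rats (log2 difference -3.09 ± 0.24, 95% interval -3.58 to -2.60; limma adjusted p = 8.96e-11).

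The probes of Inhbb, the beta B subunit of inhibin B and activin B, disagreed. Probe A_44_P576822 had levels of -3.18 to -2.85 (median -2.96) in round spermatids of cyclophosphamide rats and -3.03 to -2.63 (median -2.81) in round spermatids of saline rats. In pachytene spermatocytes its levels were -0.57, -0.32, -0.27, -0.92 and -0.67 in cyclophosphamide rats and -0.44, -0.74, -0.30, -0.83 and -0.73 in saline rats. The cell types did not overlap. It was 5.43-fold lower in round spermatids of cyclophosphamide rats (95% interval 4.52 to 6.52; log2 difference -2.44 ± 0.13; limma adjusted p = 1.39e-13 over all probes) and 4.60-fold lower in those of saline rats (95% interval 3.84 to 5.53; log2 difference -2.20 ± 0.13; limma adjusted p = 1.57e-12 over all probes). Probe A_64_P030644, the brighter of the pair and so the one that stood for the gene, averaged -1.50 ± 0.17 in round spermatids of cyclophosphamide rats, -1.49 ± 0.42 in those of saline rats, -1.41 ± 0.26 in pachytene spermatocytes of cyclophosphamide rats and -1.64 ± 0.32 in those of saline rats (SD, n = 6, 6, 5 and 5). Its groups overlapped, and the log2 difference between cell types was -0.09 among cyclophosphamide rats (95% interval -0.47 to 0.28; limma adjusted p = 0.65) and 0.15 among saline rats (95% interval -0.23 to 0.52; limma adjusted p = 0.469). The mean over both probes gave -1.27 among cyclophosphamide rats and -1.03 among saline rats, each past the test.

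Cldn11, a claudin of the Sertoli cell tight junction, had levels of -4.75 to -3.94 (median -4.40) in round spermatids of cyclophosphamide rats and -4.86 to -3.76 (median -4.56) in round spermatids of saline rats. In pachytene spermatocytes it had levels of -1.96, -1.41, -1.47, -2.41 and -1.27 in cyclophosphamide rats and -2.03, -1.79, -1.35, -1.25 and -1.36 in saline rats. The cell types lay apart and the treatments overlapped. Cldn11 was 6.42-fold lower in round spermatids of cyclophosphamide rats (95% interval 4.66 to 8.85; log2 difference -2.68 ± 0.22; limma adjusted p = 2.03e-10) and 7.30-fold lower in those of saline rats (95% interval 5.29 to 10.1; log2 difference -2.87 ± 0.22; limma adjusted p = 1.07e-10). Normexp on the median signals gave -1.99 among cyclophosphamide rats and -2.15 among saline rats.

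Gja1, the connexin through which Sertoli cells couple to each other and to germ cells, had levels of -5.73 to -4.35 (median -4.82) in round spermatids of cyclophosphamide rats and -5.45 to -3.84 (median -4.85) in round spermatids of saline rats. In pachytene spermatocytes it had levels of -1.40, -1.28, -0.97, -1.80 and -1.35 in cyclophosphamide rats and -1.55, -1.24, -1.10, -1.86 and -1.15 in saline rats. No round spermatid array reached the lowest pachytene array. The log2 difference was -3.57 ± 0.26 among cyclophosphamide rats (limma adjusted p = 2.65e-11) and -3.32 ± 0.26 among saline rats (limma adjusted p = 1.47e-10). Normexp on the median signals gave -2.52 among cyclophosphamide rats and -2.36 among saline rats.

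Clu, a secreted chaperone abundant in Sertoli cells and shed into tubular fluid, had levels of 0.28 to 1.71 (median 1.11) in round spermatids of cyclophosphamide rats and 0.42 to 2.32 (median 1.08) in round spermatids of saline rats. In pachytene spermatocytes it had levels of 4.40, 4.88, 4.77, 4.07 and 4.50 in cyclophosphamide rats and 4.46, 4.69, 4.75, 4.16 and 4.39 in saline rats. The probe, printed as 10 spots per array, was brighter than the 75th percentile on all 22 arrays, and the cell types did not overlap. The log2 difference was -3.47 ± 0.27 among cyclophosphamide rats (limma adjusted p = 8.95e-11) and -3.36 ± 0.28 among saline rats (limma adjusted p = 2.30e-10).

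Wt1, a zinc finger transcription factor that maintains Sertoli cell identity, gave opposite directions by probe. Probe A_44_P808666 had levels of -5.47 to -4.17 (median -4.67) in round spermatids of cyclophosphamide rats and -5.05 to -3.90 (median -4.68) in round spermatids of saline rats. In pachytene spermatocytes its levels were -1.85, -1.41, -1.30, -2.10 and -1.86 in cyclophosphamide rats and -1.78, -1.71, -1.46, -2.17 and -1.75 in saline rats. The cell types did not overlap. By this probe Wt1 was 8.09-fold lower in round spermatids of cyclophosphamide rats (95% interval 5.83 to 11.2; log2 difference -3.02 ± 0.23; limma adjusted p = 3.70e-11 over all probes) and 6.83-fold lower in those of saline rats (95% interval 4.92 to 9.47; log2 difference -2.77 ± 0.23; limma adjusted p = 2.33e-10). Probe A_64_P142861 averaged -2.46 ± 0.58 in round spermatids of cyclophosphamide rats, -2.60 ± 0.20 in those of saline rats, -4.67 ± 0.54 in pachytene spermatocytes of cyclophosphamide rats and -4.50 ± 0.41 in those of saline rats (SD, n = 6, 6, 5 and 5). It was higher in round spermatids without overlap, by 2.21 ± 0.26 among cyclophosphamide rats (limma adjusted p = 5.38e-08 over all probes) and 1.90 ± 0.26 among saline rats (limma adjusted p = 6.63e-07). Probe A_64_P140507, the brightest on average and printed as 1 spot, averaged -2.61 ± 0.54, -2.63 ± 0.34, -3.81 ± 0.33 and -3.75 ± 0.29 in those groups in that order. It was higher in round spermatids by 1.20 ± 0.23 among cyclophosphamide rats (limma adjusted p = 4.59e-05), where the gap between the nearest arrays was 0.01, and by 1.12 ± 0.23 among saline rats (limma adjusted p = 0.000117), where it was 0.43. The 3 probes were each well above background on all 22 arrays, so the sign of Wt1 between cell types rests on the probe, and the mean over them differed by 0.13 among cyclophosphamide rats and 0.08 among saline rats, neither past the test.

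**Figure D2:**
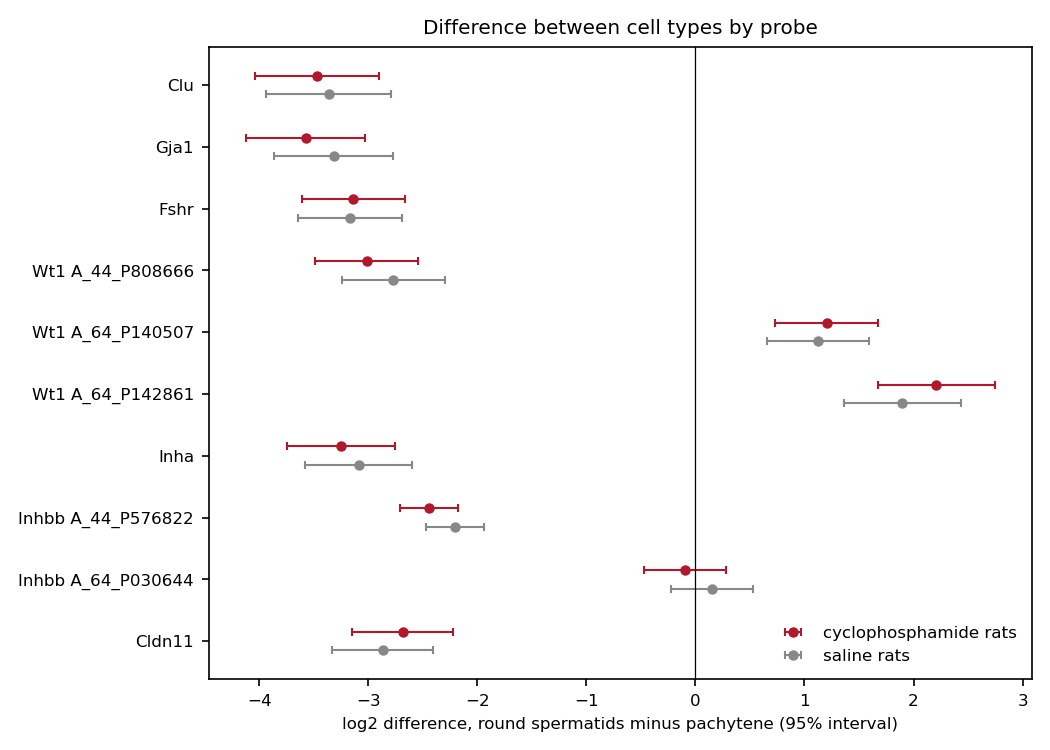
Log2 difference of each Sertoli gene probe, round spermatids minus pachytene spermatocytes (x axis), with 95% intervals, for cyclophosphamide rats above saline rats. The 7 probes to the left of 0 lie between -3.57 and -2.20, the Wt1 probes A_64_P140507 and A_64_P142861 lie between 1.12 and 2.21, and the intervals of Inhbb probe A_64_P030644 hold 0.

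Order of the group means was the same at its ends for Clu, Gja1, Fshr, Inha, Cldn11, Wt1 probe A_44_P808666 and Inhbb probe A_44_P576822, in that both pachytene groups stood above both round spermatid groups. Within a cell type the neighbouring treatment groups of these 7 probes differed by 0.24 or less and overlapped. Slides and scans coincided, slides 1 and 2 held both cell types and slides 3 and 4 held pachytene arrays alone. Among cyclophosphamide rats the differences within slide 1 were -3.84 for Clu, -3.62 for Gja1, -3.11 for Fshr, -3.49 for Inha and -2.99 for Cldn11, and within slide 2 they were -3.43, -3.62, -3.18, -3.47 and -3.10 for those genes. Among saline rats they were -3.50, -3.28, -3.31, -3.37 and -2.66 within slide 1 and -3.46, -3.47, -3.52, -3.29 and -2.81 within slide 2. On each of these slides the pachytene arm was 1 array per treatment, so the within-slide values carry no replicate check of their own and any call there takes its spread from the round spermatid arrays. Wt1 by its brightest probe differed by 0.71 within slide 1 in each treatment, and by 1.29 among cyclophosphamide rats and 1.41 among saline rats within slide 2.

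Cyclophosphamide moved none of the genes tested past the test, 6 in round spermatids and 7 in pachytene spermatocytes. Over all genes 0% passed in round spermatids (18864 tested; smallest limma adjusted p = 0.959; 626 at an unadjusted p under 0.05) and 0% in pachytene spermatocytes (18470 tested; smallest limma adjusted p = 0.681; 1347 at an unadjusted p under 0.05). In round spermatids 6 genes were tested and the cyclophosphamide minus saline differences were -0.24 for Gja1, -0.09 for Inha, -0.07 for Clu, -0.01 for Inhbb and 0.03 for Wt1 and for Cldn11, with a median of -0.04 beside -0.01 over all genes tested. Their intervals ran from -0.76 to 0.48, up to 1.69-fold. Fshr was not tested there because it was not well above background on 2 arrays of each group, and it averaged -5.48 ± 0.42 after cyclophosphamide and -5.67 ± 0.45 after saline (SD, n = 6 each). In pachytene spermatocytes the differences of the 7 genes were -0.15 for Cldn11, -0.05 for Wt1, 0.02 for Gja1, 0.04 for Clu, 0.07 for Inha, 0.16 for Fshr and 0.23 for Inhbb, with a median of 0.04 beside 0.03 over all genes tested. Their 95% intervals ran from -0.63 to 0.65, so a change of more than 1.57-fold lay outside each of them.

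The treatment groups overlapped for all 10 probes in each cell type, where 0.19% of probes tested did not overlap in round spermatids and 0.628% in pachytene spermatocytes. By probe, the differences were -0.24 to 0.14 in round spermatids and -0.17 to 0.23 in pachytene spermatocytes. The difference between the drug effects, round spermatids minus pachytene spermatocytes, was -0.26 to 0.19 for the 7 genes (limma adjusted p of 0.774 to 0.979; intervals from -1.03 to 0.84), and 0% of 19664 genes tested passed (smallest limma adjusted p = 0.0586; 1504 at an unadjusted p under 0.05). The drug effects, their difference and the cell type comparisons share arrays.

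**Figure D3:**
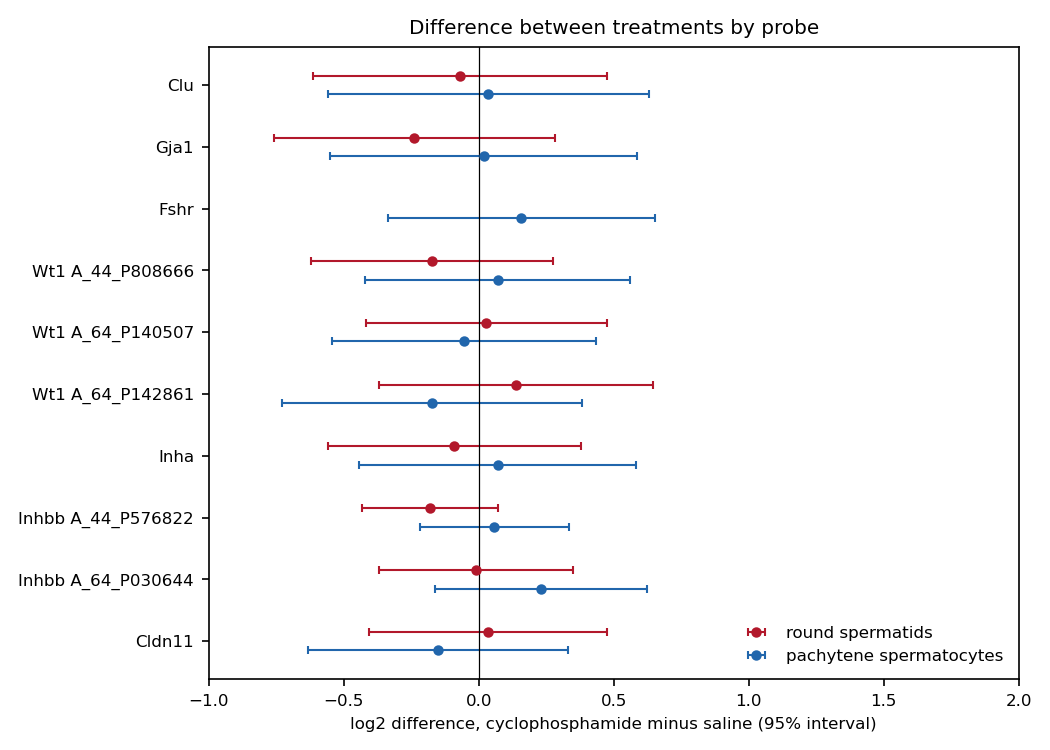
Log2 difference of each Sertoli gene probe, cyclophosphamide minus saline (x axis), with 95% intervals, in round spermatids (above) and pachytene spermatocytes. All plotted intervals hold 0, the differences lie between -0.24 and 0.23, and Fshr has no value in round spermatids because it was not tested there.

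On some arrays the 7 probes that were lower in round spermatids deviated from their group means in 1 direction. All 7 lay below their group mean on the round spermatid array of cyclophosphamide rat 25, with a mean deviation of -0.64, and on those of saline rats 15, 25 and 28 (mean deviations -0.20, -0.40 and -0.43). None lay below it on the round spermatid arrays of cyclophosphamide rat 27 and saline rat 16 (mean deviations 0.43 and 0.60). In pachytene spermatocytes all 7 lay below the group mean on 2 arrays of cyclophosphamide rats (mean deviations -0.14 and -0.47), and none did on 2 other arrays of cyclophosphamide rats (0.28 and 0.34) and on that of saline rat 25 (0.30). Deviations were not counted over all probes. With group means removed over the 22 arrays, each of these 7 probes was correlated with the genes well above background on all arrays. The median r ran from -0.04 for Inhbb probe A_44_P576822 to 0.05 for Inha, so genes at large did not follow the 7 probes. The part of a shift of the whole array in single deviations was not tested.

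**Figure D4:**
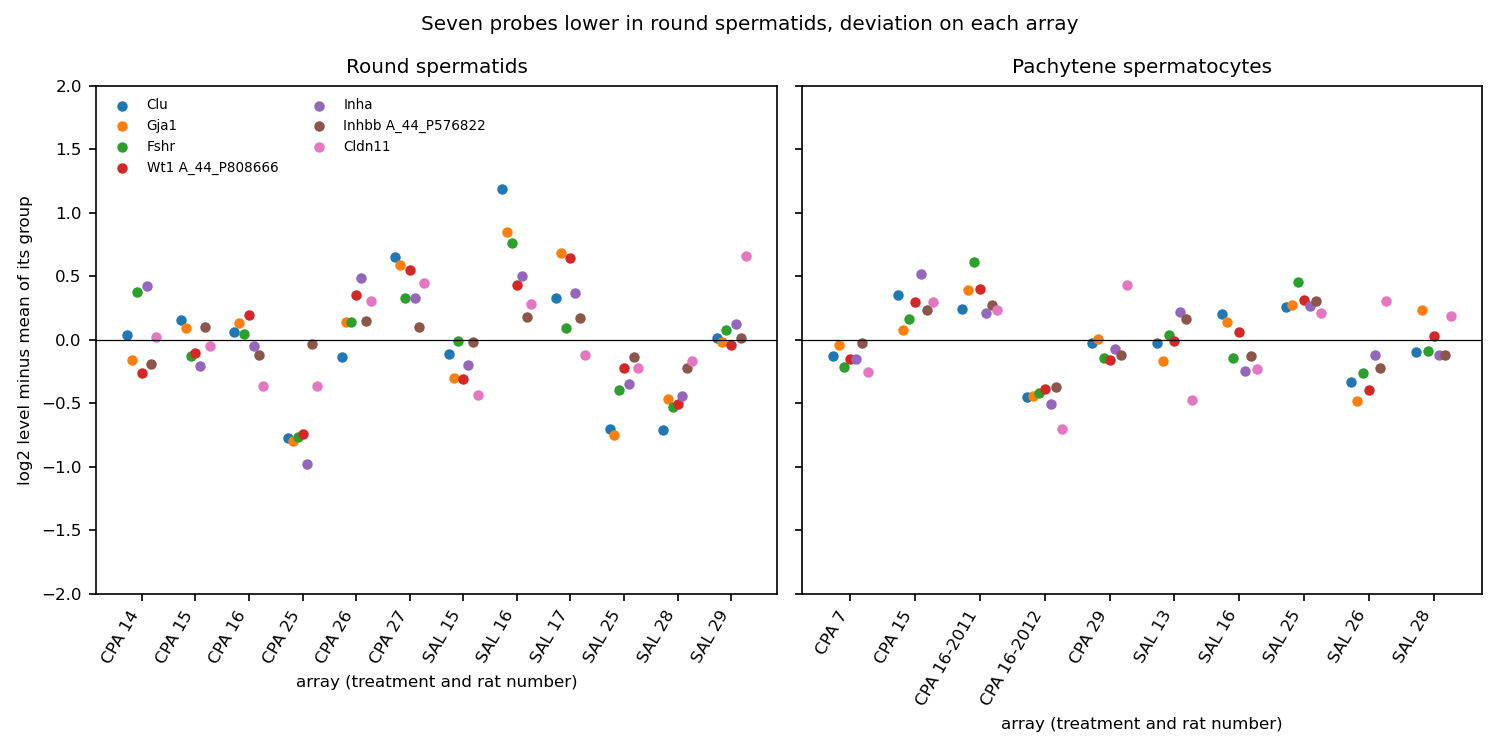
Deviation of the 7 probes that were lower in round spermatids from the mean of their own group (y axis, log2), on each array (x axis, treatment and rat number), with round spermatids left and pachytene spermatocytes right. On some arrays, such as that of cyclophosphamide rat 25 among round spermatids, all 7 points lie below 0, and on others, such as saline rat 16 there, all lie above it.

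Clu was set against the other 9 probes in each cell type, 18 relations in all, with p-values from 100000 permutations adjusted over the 18. Across the 12 round spermatid arrays Clu and Gja1 correlated at r = 0.92 (permutation p = 6.00e-05, adjusted 0.00108) with rho = 0.88 (permutation p = 0.000400), and r was 0.84 without the 2 arrays farthest from the median of Clu. Within slide 1 this r was 0.87 and within slide 2 it was 0.97 (6 arrays each). Clu and Fshr correlated at r = 0.87 (permutation p = 0.000320, adjusted 0.00192) with rho = 0.71 (permutation p = 0.0117), with r = 0.77 without those 2 arrays and r = 0.59 and 0.99 within the slides. Fshr was well above background on only 4 of 6 arrays of each round spermatid group, so some of its values here are near background. Wt1 probe A_44_P808666 (r = 0.77, adjusted permutation p = 0.0118; rho = 0.76, permutation p = 0.00583) and Inha (r = 0.76, adjusted permutation p = 0.0118; rho = 0.67, permutation p = 0.0200) also passed, with r = 0.67 and 0.63 without the 2 arrays, 0.54 and 0.62 within slide 1 and 0.94 and 0.91 within slide 2. Cldn11 (0.51), Inhbb probes A_44_P576822 (0.59) and A_64_P030644 (0.56) and Wt1 probes A_64_P140507 and A_64_P142861 (-0.13 each) did not pass. With treatment group means removed, Inhbb probe A_44_P576822 passed (r = 0.67, adjusted permutation p = 0.0299).

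Across the 10 pachytene arrays Clu correlated with Wt1 probe A_44_P808666 at r = 0.93 (permutation p = 0.000160, adjusted 0.00144) and rho = 0.87 (permutation p = 0.00228), with r = 0.91 without the 2 arrays farthest in Clu. Inhbb probe A_44_P576822 (r = 0.83, adjusted permutation p = 0.0118; rho = 0.81, permutation p = 0.00727), Gja1 (r = 0.82, adjusted permutation p = 0.0118; rho = 0.70, permutation p = 0.0312, adjusted 0.0623, which did not pass), Fshr (r = 0.78, adjusted permutation p = 0.0152; rho = 0.82, permutation p = 0.00590) and Inha (r = 0.77, adjusted permutation p = 0.0186; rho = 0.79, permutation p = 0.00873) also passed. Without those 2 arrays these were 0.70, 0.84, 0.76 and 0.49, so the relation with Inha rests on them. Under quantile normalization the relations with Inhbb (r = 0.70), Fshr (0.65) and Inha (0.69) no longer passed. The other 4 probes, with r of 0.24 to 0.67, did not pass, and with treatment group means removed Wt1 probe A_64_P142861 did (r = 0.70, adjusted permutation p = 0.0346). No slide held 6 pachytene arrays, and with slide means removed the 5 values that passed were 0.70 to 0.93. The median r of Clu with all genes well above background was 0.06 in round spermatids and -0.04 in pachytene spermatocytes, and all values share the scaling of the array. For the relations that passed, 98.5% (Inha) to 99.9% (Gja1) of 17270 genes had a lower r with Clu in round spermatids. In pachytene spermatocytes 94.6% (Inha) to 99.6% (Wt1 probe A_44_P808666) of 17136 genes did. Other genes thus followed Clu as closely, few at the level of Gja1 in round spermatids and more at that of Inha in pachytene spermatocytes. These relations are not particular to Sertoli genes.

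With group means removed over the 22 arrays, and as a description alone, the genes whose pattern was most like that of Clu were Glb1l3 (r = 0.94), Klhl36 (0.93) and Gm2a (0.92), among 9362 genes well above background on all arrays (9363 for Fshr). For Gja1 they were Plppr4 (0.93), Man2a1 (0.93) and Cdh23 (0.93). For Fshr they were Aqp8 (0.90), Gm2a (0.89) and Alas2 (0.89), and for Inha they were Alas2 (0.94), Reep1 (0.93) and Cited1 (0.93). For Cldn11 they were Dusp8 (0.82), Scarb1 (0.74) and Tbl1x (0.74). The probes of Wt1 again parted: A_44_P808666 was most like Rras2 (0.94), Tyro3 (0.94) and Man2a1 (0.93), A_64_P140507 most like Ppp1r9a (0.86), Coq8a (0.83) and Otub1 (0.80), and A_64_P142861 most like Dlgap4 (0.89), Pabir1 (0.87) and Ppp1r9a (0.86). Inhbb probe A_44_P576822 was most like Bex2 (0.90), Avpi1 (0.88) and Bzw2 (0.87), and probe A_64_P030644 most like Csf3 (0.94), Nus1 (0.93) and Mrps15 (0.88). Among the members, Wt1 probes A_64_P140507 and A_64_P142861 correlated with each other at 0.80 and with probe A_44_P808666 at 0.04 and 0.25, and Fshr correlated with Inha at 0.87.

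Other Sertoli genes were more often lower than higher in round spermatids. Of 26 further genes listed, 24 were on the array and 22 were tested among cyclophosphamide rats. In round spermatids 14 of these were lower, 4 were higher and 4 did not pass, and the median difference was -1.47. Among saline rats 15 of 23 were lower and 3 higher, with a median of -1.17. Over all genes 40.4% were lower and 38.8% higher among cyclophosphamide rats (median -0.02), and 37% were lower and 38.3% higher among saline rats (median 0.01). Over the list genes that met the detection filter in both cell types, 11 of 19 were lower and 4 higher among cyclophosphamide rats (median -0.54), and 11 of 19 were lower and 3 higher among saline rats (median -0.83). Dhh, the hedgehog ligand that Sertoli cells secrete, was well above background on all 5 pachytene arrays and on no round spermatid array of either treatment, and was at least 5.98-fold lower in round spermatids of cyclophosphamide rats (limma adjusted p = 4.31e-11) and at least 5.45-fold lower in those of saline rats (limma adjusted p = 7.37e-10). Such a bound sets the bright group's mean against the lowest signal well above background on each array of the dim group, or the probe's own signal where that was higher. Dhh was tested only because the pachytene groups met the filter, so its test is no independent sign of the direction. Ptgds, a prostaglandin D synthase, was 7.32-fold lower among cyclophosphamide rats and 7.69-fold lower among saline rats, and the cystatin Cst9l 7.87-fold and 7.08-fold lower. The protease Ctsl was 6.14-fold lower among saline rats. Erbb4, a neuregulin receptor, ran the other way and was 6.97-fold higher in round spermatids of cyclophosphamide rats. Amh, the anti-Müllerian hormone of immature Sertoli cells, differed by 0.19 ± 0.14 among cyclophosphamide rats and 0.03 ± 0.14 among saline rats and did not pass.

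Among inhibin and activin genes other than Inha and Inhbb, 4 of 11 tested were lower in round spermatids of cyclophosphamide rats and 4 higher (median -0.27), and among saline rats 5 of 11 were lower and 4 higher (median -0.22). These counts are near the shares of all genes, 40.4% lower and 38.8% higher among cyclophosphamide rats and 37% lower and 38.3% higher among saline rats. Over the 9 that met the detection filter in both cell types, 3 were lower and 3 higher among cyclophosphamide rats, and 4 were lower and 3 higher among saline rats. Igsf1, a membrane protein once described as an inhibin co-receptor, was 13.3-fold lower in round spermatids of cyclophosphamide rats and 11.1-fold lower in those of saline rats. Smad4, the shared mediator of activin and other TGF-beta signals, was 4.97-fold and 3.65-fold higher in those groups. Fst, which binds activin, was 3.96-fold and 3.24-fold lower there and well above background on 2 of 6 arrays in each round spermatid group. Tgfbr3, the inhibin co-receptor betaglycan, was at least 2.80-fold higher among cyclophosphamide rats, where no pachytene array was well above background, and 3.08-fold higher among saline rats, where 2 of 5 were. Fst met the filter only through pachytene spermatocytes and Tgfbr3 only through round spermatids, where each was high. Neither test is thus an independent sign of the direction, and folds against a partly undetected group are approximate. Inhba, the other beta subunit, was higher in round spermatids, by 1.45 ± 0.18 among cyclophosphamide rats and 1.18 ± 0.18 among saline rats (limma adjusted p = 1.60e-07 and 3.65e-06), opposite in sign to Inha. After cyclophosphamide it differed by 0.09 in round spermatids and -0.17 in pachytene spermatocytes, and no gene of these lists passed for treatment.

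Of 20 further junction genes, 10 of 15 tested were lower in round spermatids of cyclophosphamide rats and 4 higher (median -1.40). Among saline rats 11 of 16 were lower and 4 higher (median -1.24). Over all genes 40.4% were lower and 38.8% higher among cyclophosphamide rats, and 37% were lower and 38.3% higher among saline rats. Over the junction genes that met the detection filter in both cell types, 8 of 13 were lower and 4 higher among cyclophosphamide rats (median -1.13). Among saline rats 9 of 14 of these were lower and 4 higher (median -0.90). The junctional adhesion molecule genes Jam2 and F11r were 6.20-fold and 5.12-fold lower among cyclophosphamide rats and 5.49-fold and 4.33-fold lower among saline rats. Nectin3, an adhesion molecule that spermatids carry opposite Sertoli cell Nectin2, was 3.49-fold higher among saline rats, while the adaptor Afdn was 3.46-fold lower there and did not pass by its other probe. Among cyclophosphamide rats the connexin Gjb2 was 5.86-fold lower and the claudin Cldn5 4.25-fold lower. Tjp1, the scaffold beneath tight junctions, was lower by a smaller step, -0.79 ± 0.12 among cyclophosphamide rats and -0.66 ± 0.12 among saline rats (limma adjusted p = 3.83e-06 and 4.54e-05). After cyclophosphamide Tjp1 differed by -0.12 in round spermatids and 0.01 in pachytene spermatocytes.

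**Figure D5:**
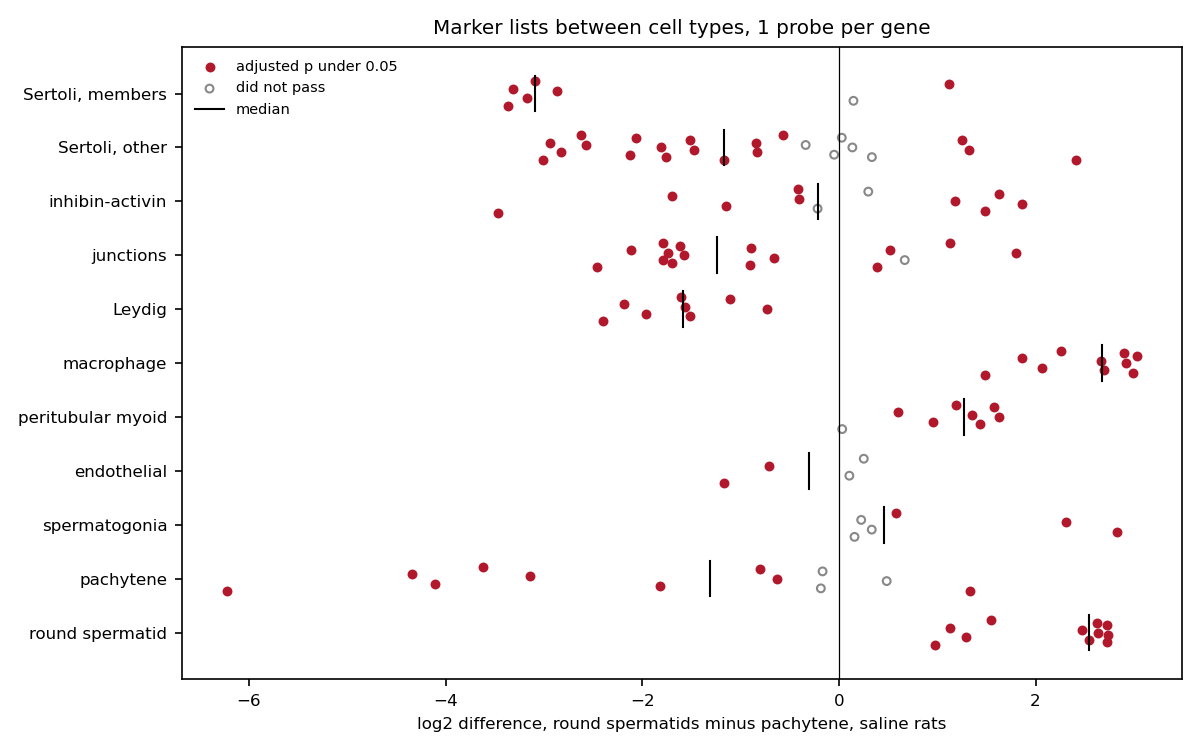
Log2 difference of each tested gene of 11 marker lists (rows), for round spermatids over pachytene spermatocytes among saline rats (x axis), 1 probe per gene; filled points passed at an adjusted p under 0.05, open points did not, and vertical bars are list medians. The Sertoli genes described here have a median of -3.09, the Leydig list -1.58, the macrophage list 2.68 and the round spermatid list 2.54.

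Markers of some other testis cells also differed between the fractions, and their part in the Sertoli gene differences was not tested. Over all genes tested among saline rats, 37% were lower in round spermatids and 38.3% higher. The summed linear level of the 7 Sertoli genes (1 is the 75th percentile of the array) was 1.97 to 4.30 in round spermatids of cyclophosphamide rats, 1.99 to 6.14 in those of saline rats, 19.1 to 33.5 in pachytene spermatocytes of cyclophosphamide rats and 20.7 to 30.7 in those of saline rats. Clu, the brightest of these genes on every array, made up most of this sum, so it mainly follows Clu and is no joint measure of the 7. Of the Leydig list 8 of 8 tested were lower in round spermatids of saline rats, led by the steroidogenic genes Star (5.26-fold, well above background on 3 of 6 round spermatid arrays) and Cyp11a1 (4.54-fold). Star and Hsd17b3 met the detection filter only through pachytene spermatocytes, where they were high, and the other 6 were all lower. Summed Leydig levels were 1.89 to 3.31, 2.04 to 4.59, 5.61 to 10.8 and 6.13 to 12.3 in the groups in the order above. Lhcgr, the receptor that defines Leydig cells, was well above background on no array. Of the macrophage list 10 of 10 tested were higher in round spermatids of saline rats, led by Lyz2 (8.15-fold) and Cd74 (7.96-fold), with summed levels of 7.83 to 11.9, 6.30 to 14.5, 0.991 to 1.68 and 1.29 to 1.73. Of the peritubular myoid list 7 of 8 were higher, led by Actg2 (log2 difference 1.63 ± 0.42) and Acta2 (1.58 ± 0.20), with summed levels of 5.83 to 11.3, 6.40 to 13.0, 3.48 to 5.70 and 3.41 to 6.03. Of 4 endothelial genes tested 2 were lower, Kdr (2.24-fold) and Pecam1 (1.63-fold). Of 6 spermatogonial genes tested 3 were higher, led by Gfra1 (7.12-fold) and Zbtb16 (at least 2.66-fold). Zbtb16 met the detection filter only through round spermatids, where it was high, and of the other 5 genes 2 were higher. With so few genes, the endothelial and spermatogonial counts are near the shares of all genes. The Sertoli and Leydig lists were thus lower in the round spermatid fraction where the macrophage and myoid lists were higher.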

How the data were processed

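The 22 samples were hybridised to Agilent 1-colour rat arrays. Spot intensity was extracted from the scans by the authors with Agilent Feature Extraction, version 10.7.3.1 per the file headers and 11.5.1.1 per the submitters' processing notes, and the processed signal is background-subtracted per the file headers. A series table of log2 values deposited by the authors correlated, within a cell type, with its own array's quantile-normalized and gene-median-centred log2 values at 0.985 to 0.999 and with any other array's at 0.583 or less. Its column medians were -0.00975 to 0.00702, and its exact steps and centring are unknown, so it served only as an alternative for the treatment comparisons.

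From the processed intensity, log2 values minus each array's 75th percentile were taken, control spots and outlier spots were left out and spots of 1 probe were averaged. Of 30367 probes, 17998 (59.3%) mapped by accession to 15154 RefSeq symbols; the Feature Extraction header names build rn4, and no array coordinates are printed. Comparisons used limma 3.58.1 (lmFit and eBayes, statmod 1.5.0, R 4.3.3) over all tested genes with Benjamini-Hochberg adjustment at 0.05, on all 22 arrays in 1 fit, and the script was tested on simulated data. Correlations used permutation tests (Python 3.11.15, scipy 1.17.1, numpy 2.4.6, pandas 2.3.3, matplotlib 3.10.9). The Sertoli genes and all lists were chosen with earlier results of these data known. Named from the further lists were the 4 genes with the largest changes per comparison for Sertoli, inhibin and junction genes, the top 2 of each other list, and Amh, Inhba and Tjp1. The genes most like each probe are the 3 with the highest correlation. Alternatives were another probe or the probe mean, quantile normalization, normexp, no filter, slide or replicate blocks, single slides and leaving out each array. Normexp on median signals, the other probes, every probe on its own, slides 1 and 2 alone, counts of genes that met the filter in both cell types and the settings for correlations and lists were chosen after seeing the data; normexp on mean signals was not run because the files used here hold median signals. P-values measure the spread between arrays, which were counted as separate rats although 2 cyclophosphamide pachytene arrays share a rat number with different year suffixes. Where a rat number was shared by the cell types, same-numbered deviations correlated at -0.11, 0.13 and 0.17 in cyclophosphamide rats and 0.01, -0.20 and 0.37 in saline rats. Only for saline rat 28 (0.37) did this exceed the highest value with another number (0.17). These values cannot settle whether same-numbered arrays share an animal.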

Additional observations from a re-analysis of the deposited data

Results flagged for a closer look

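One value stood apart from its group. Wt1 probe A_64_P142861 read -3.74 on the pachytene array of cyclophosphamide rat 15, where the other 4 arrays of the group read -5.09 to -4.74, and the gap exceeded Dixon's 95% value. This was 1 of 40 groups tested, and chance gives about 1 in 20.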

How the results depend on the processing

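Clu, Gja1, Fshr, Inha and Cldn11 kept their direction and passed in all 21 alternatives of both cell type comparisons; among saline rats Clu ranged from -3.60 to -3.22, Gja1 from -3.49 to -2.36, Fshr from -3.52 to -1.86, Inha from -3.37 to -2.84 and Cldn11 from -3.01 to -2.15. Wt1 turned with its probe, to -3.02 among cyclophosphamide rats and -2.77 among saline rats with A_44_P808666, and did not pass as a probe mean (0.13 and 0.08), nor within slide 1 (0.71 and 0.71), where 1 pachytene array per treatment was left. Inhbb passed as a probe mean (-1.27 and -1.03). No tested Sertoli gene passed for treatment under any alternative. Of all genes, those passing for treatment were 7, 34, 2 and 20 in pachytene spermatocytes within slides 1, 2, 3 and 4, and 1 and 4 in round spermatids within slides 1 and 2. These pachytene counts set 1 array against 1 on slides 1 and 2, 2 against 1 on slide 3 and 1 against 2 on slide 4, so a lone array is assumed to vary like the others. For the difference of drug effects they were 21 within slide 2, with 1 pachytene array per treatment, 2 on slides 1 and 2 alone, and 0 to 1 with each array left out. With rat number as a replicate block, 6 Sertoli genes passed in both cell type comparisons, and 15336 of all genes among cyclophosphamide rats and 14640 among saline rats. Among junction genes, the count higher in saline round spermatids was 2 in place of 4 under normexp, under a slide block and within slides 1 and 2, and among cyclophosphamide rats it was 2 in place of 4 within slide 1. Among saline rats the junction genes lower were 7 in place of 11 within slide 1, and the inhibin and activin genes lower 3 in place of 5 within slide 2. The causes were not tested. Signal near background limits Fshr in round spermatids.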
